A study of Mus musculus with 386 samples.

Results

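The nuclear genes of oxidative phosphorylation are described here as 81 of the 18820 genes that the arrays measured under a single symbol. They were chosen by symbol alone: names starting with Ndufa, Ndufb, Ndufc, Ndufs, Ndufv, Uqcr, Cox4, Cox5, Cox6, Cox7, Cox8 or Atp5, and the 4 succinate dehydrogenase genes Sdha, Sdhb, Sdhc and Sdhd, without assembly factors of the Ndufaf series and without pseudogenes. By symbol, 36 belong to complex I, 4 to complex II, 7 to complex III, 17 to complex IV and 17 to complex V. Where a gene had several probe sets, which was so for 23 genes, the one with the highest mean was used.

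The data are 386 arrays (Affymetrix Mouse Gene 1.1 ST) of RNA from brain, kidney, liver and lung, each from 1 tissue of 1 mouse, and 67 of the 111 mice gave all 4 tissues. The mice were 23 days old, of both sexes, and belonged to 9 crosses written dam x sire: the inbred strains CAST, PWK and WSB, which are wild-derived mouse strains, and the 6 F1 crosses made from them in both directions. Each cross had 6 to 13 arrays per tissue, and in all there were 85 brain, 102 kidney, 101 liver and 98 lung arrays. All animals came from 1 breeding colony within a few generations of the purchased founders, and the labels name no treatment and no engineered allele. Values are log2 signals as deposited, so that a difference of 1 is a factor of 2, and the signal scale compares 1 gene between arrays but not different genes with each other. A difference is called where its Benjamini-Hochberg adjusted p from a limma fit across all tested genes was under 0.05.

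Oxidative phosphorylation passes electrons from NADH and succinate through complexes I to IV of the inner mitochondrial membrane to oxygen, and complex V, the ATP synthase, uses the resulting proton gradient to make ATP. Each complex except complex II combines subunits encoded in mitochondrial DNA with the nuclear-encoded subunits described here. Several complex IV subunits exist in paralogous forms, with a widely expressed form and a form found in heart, skeletal muscle, brown fat, lung or testis. Kidney tubules and hepatocytes are known to be rich in mitochondria.

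The promoters of the widely expressed and the tissue-restricted forms are shown because the results by tissue turn on these pairs. RefSeq promoter windows of build GRCm38.p6 were held for 67 of the 81 genes. In the 250 bases before the start, the median gene of the 67 had 14 CG dinucleotides, with a range from 1 to 32, and the median over 27025 genes was 6. The 3 genes of the 67 with under 5 were Cox8b with 1, and Cox7a1 and Ndufc2 with 4 each. In the next 4 sequences, given 5′ to 3′, capitals mark CG dinucleotides. Cox7a1 lies at chr7:30183921-30184170 on the plus strand, Cox7a2 at chr9:79759854-79760103, Cox8b at chr7:140900447-140900696 and Cox8a at chr19:7217617-7217866, the last 3 on the minus strand.
Cox7a1: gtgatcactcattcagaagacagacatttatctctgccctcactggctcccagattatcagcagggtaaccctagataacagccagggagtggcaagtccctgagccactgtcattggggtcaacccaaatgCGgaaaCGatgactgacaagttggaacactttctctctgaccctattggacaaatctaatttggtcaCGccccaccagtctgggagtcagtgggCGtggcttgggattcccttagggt
Cox7a2: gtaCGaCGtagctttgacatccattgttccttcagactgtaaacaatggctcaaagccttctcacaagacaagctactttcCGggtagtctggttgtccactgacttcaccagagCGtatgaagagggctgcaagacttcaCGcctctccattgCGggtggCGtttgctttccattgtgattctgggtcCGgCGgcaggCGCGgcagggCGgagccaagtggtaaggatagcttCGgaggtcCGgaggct
Cox8b: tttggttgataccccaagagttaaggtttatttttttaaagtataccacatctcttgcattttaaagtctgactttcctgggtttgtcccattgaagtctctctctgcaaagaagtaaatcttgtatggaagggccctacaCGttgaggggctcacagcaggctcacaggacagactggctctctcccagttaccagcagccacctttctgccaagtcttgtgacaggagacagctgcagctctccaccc
Cox8a: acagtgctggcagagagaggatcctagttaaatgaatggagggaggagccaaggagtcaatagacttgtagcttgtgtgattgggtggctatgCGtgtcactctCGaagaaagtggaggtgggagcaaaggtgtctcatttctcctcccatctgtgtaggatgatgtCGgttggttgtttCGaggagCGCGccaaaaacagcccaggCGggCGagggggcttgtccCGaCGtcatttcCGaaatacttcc
Cox7a1 and Cox8b, the restricted forms, have 4 and 1 CG in capitals, and Cox7a2 and Cox8a, the widely expressed forms, 14 and 11. Other pairs did not all run this way: Cox6b1 had 14 and its testis form Cox6b2 8, but Cox7b had 5 and its testis form Cox7b2 9.

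Motifs of factors known to bind promoters of respiratory genes were searched on both strands of the 300-base windows, from 250 bases before to 50 after the start. The NRF1 motif GCGCATGCG stood in 8 of the 67 windows, or 11.9%, and in 1.95% of the windows of all 27025 genes. The ETS motif CCGGAAG stood in 17, or 25.4%, against 9.93% of all. The YY1 motif AAGATGGC stood in 10, or 14.9%, against 3.19%, and the ERR motif TGACCTTG in 4, or 5.97%, against 1.76%. In the 250 bases before the start alone, the YY1 motif stood in 1, or 1.49%, against 1.83% of all genes. There the NRF1 motif stood in 8.96% against 1.64%, the ETS motif in 17.9% against 7.83% and the ERR motif in 4.48% against 1.51%. A match of letters is a description and not a binding site. Cox6a1, the widely expressed form of subunit VIa, and Atp5l, subunit g of the ATP synthase, are printed because they hold several of these motifs and because Atp5l is among the genes of complex V with the widest range between tissues. The 250 bases before the start are chr5:115348959-115349208 for Cox6a1 and chr9:44920743-44920992 for Atp5l, both on the minus strand, with motif matches in capitals.
Cox6a1: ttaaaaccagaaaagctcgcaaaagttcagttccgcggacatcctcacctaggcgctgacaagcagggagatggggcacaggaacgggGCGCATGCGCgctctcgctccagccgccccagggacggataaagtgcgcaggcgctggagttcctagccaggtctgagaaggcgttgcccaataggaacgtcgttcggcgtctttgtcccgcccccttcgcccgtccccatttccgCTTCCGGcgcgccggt
Atp5l: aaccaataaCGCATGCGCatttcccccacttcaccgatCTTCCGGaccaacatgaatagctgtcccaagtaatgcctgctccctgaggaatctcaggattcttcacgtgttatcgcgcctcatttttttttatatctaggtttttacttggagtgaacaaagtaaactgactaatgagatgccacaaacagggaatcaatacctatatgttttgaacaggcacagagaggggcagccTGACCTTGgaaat
In Cox6a1 the first run of capitals holds NRF1 matches on both strands that overlap each other, and the second is an ETS match at -16. In Atp5l the runs are an NRF1 match at -241, an ETS match at -212 and an ERR match at -13, counted from the start site.

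The first comparison asks how the subunit genes differ between the 4 tissues. Nearly the whole set was highest in kidney and lowest in lung: 76 of the 81 genes had their highest tissue mean in kidney, which 16.0% of all 18820 genes did, and 71 had their lowest in lung, which 31.0% of all genes did. The order kidney, liver, brain, lung held for 65 genes with the probe sets used. With probe sets numbered among the gene's own chromosome, chosen after seeing the data, it did not hold for Ndufa11 and Cox7b. Ndufa11 then had a mean of 10.03 in brain and 9.99 in liver, and Cox7b was highest in liver. In 63 of the 81, every kidney array lay above every lung array, against 8.87% of all genes. Of the genes that departed from this order, 11 were in complex IV, both tissue-restricted forms such as Cox4i2 and Cox8b and 4 widely expressed forms, Cox4i1, Cox6a1, Cox7a2 and Cox8a, in which brain stood above liver. Markers of each tissue stood where the labels put them: 10 of 10 neuron genes were higher in brain, 9 of 9 proximal tubule genes in kidney, 10 of 10 hepatocyte genes in liver and 9 of 9 alveolar genes in lung. In bulk tissue such as this, fewer cells of a type and less RNA per cell cannot be told apart.

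Against the mean of the other 3 tissues, 32 of the 81 genes were called and higher by at least 1 log2 in kidney, where 9.18% of all genes were. In lung, 42 were called and lower by at least 1, against 11.9% of all, and 4 were higher by at least 1, against 13.6%. In brain 5 were lower by at least 1, against 17.1%. In liver 3 were higher by at least 1, against 9.27%, and 4 lower, against 17.6%. The median difference over the 81 genes was 0.95 in kidney, -1.0 in lung, -0.28 in brain and 0.31 in liver, and over all genes -0.02, -0.12, -0.12 and 0.07. The median of all single-symbol genes on the average array was lowest in liver, at 6.93, with 7.40 for brain, 7.35 for kidney and 7.38 for lung, and with each array centred on that median the kidney count was 19 and the liver count 21 in place of 3.

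**Figure D1:**
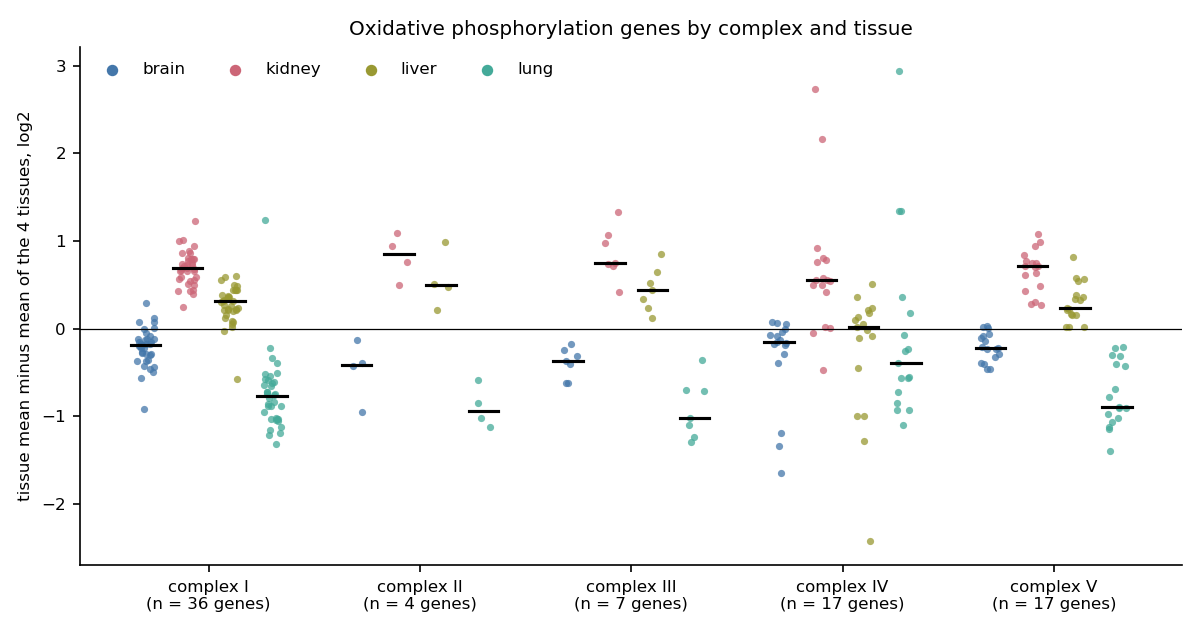
Tissue means of the 81 genes, by complex, each as its log2 difference from the gene's own mean over the 4 tissues, with a bar at the median. Kidney points lie mostly above 0 and lung points mostly below, and the points that run against this are mostly in complex IV.

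In complex I, 35 of 36 genes were highest in kidney, and the median range between tissue means was 1.52. Ndufb8, an accessory subunit of the membrane arm, had the widest range of the complex. Its lowest, median and highest log2 signals were 10.98, 11.61 and 12.10 in kidney and 8.42, 9.17 and 9.86 in lung. Kidney and lung did not overlap, and the kidney difference from the other tissues was 1.64 ± 0.022 (SE; limma, adjusted p = 1.9e-216). Ndufa4, placed here by its symbol though its protein is known to sit in complex IV, ran from 10.99 to 12.13 in kidney with a median of 11.78, and from 8.34 to 10.17 in lung with a median of 9.59. Kidney lay above lung in all arrays, and the differences from the other tissues were 1.17 and -1.77. Its paralogue Ndufa4l2, known as a hypoxia-induced gene, was the exception of this complex. It was highest in lung, at 7.44, 8.09 and 8.67, and lowest in brain, at 5.41, 5.93 and 6.46, and the lung difference was 1.66 ± 0.028.

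All 4 genes of complex II, which oxidises succinate and is also the citric acid cycle's succinate dehydrogenase, followed the common order, with a median range of 1.79. Sdhd, a membrane anchor, had medians of 11.66 in kidney, 11.55 in liver, 9.61 in brain and 9.44 in lung. Kidney and liver arrays overlapped widely, from 11.18 to 12.02 and from 11.04 to 11.93, and both lay above all brain arrays, from 8.94 to 10.11, and all lung arrays, from 8.71 to 9.92. Sdhb, the iron-sulfur subunit, differed from the mean of the other tissues by 1.25 in kidney and -1.36 in lung. Sdha, the flavoprotein, had the narrowest range of the complex, at 0.66 above in kidney and -0.78 in lung.

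All 7 genes of complex III were highest in kidney, with a median range of 1.76. Uqcr10, a small accessory subunit, ran from 10.10 to 11.95 in kidney with a median of 11.38 and from 7.68 to 9.57 in lung with a median of 8.79. The groups did not overlap, and the differences from the other tissues were 1.79 and -1.66. Uqcrfs1, the Rieske iron-sulfur protein of the electron path, differed by 1.43 in kidney and -1.73 in lung. Uqcrb was the exception at the lower end, with brain in place of lung as its lowest tissue.

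All 17 genes of complex V were highest in kidney and 16 of them lowest in lung, with a median range of 1.6. Atp5mpl, a small membrane subunit, had the widest range: 11.14, 11.42 and 11.71 in kidney against 8.38, 9.03 and 9.49 in lung. The groups did not overlap, and Atp5l differed in the same way, by 1.44 in kidney and -1.53 in lung. The 3 genes that encode the same c subunit of the rotor all followed kidney: Atp5g1 by 1.02, Atp5g2 by 0.81 and Atp5g3 by 0.99. In lung they differed by -1.21, -0.40 and -0.92, and Atp5g2 was lowest in brain, at -0.61. The catalytic subunit gene Atp5b and the central stalk subunit gene Atp5d had the narrowest ranges of the complex, 0.49 each, with kidney differences of 0.37 and 0.35.

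Complex IV held the widest and the narrowest ranges, with a median of 1.32, and 13 of its 17 genes were highest in kidney. With the probe sets used, the widely expressed forms were also highest in kidney and lowest in lung. Cox4i1, the common form of the regulatory subunit IV, differed by 1.04 in kidney and -1.14 in lung. Cox6a1 differed by 1.01 and -0.75, Cox6b1 by 0.72 and -0.75, Cox7a2 by 1.09 and -1.24, Cox7b by 0.73 and -1.24, and Cox8a by 0.76 and -0.73. The Cox7b probe set used is numbered among those of another chromosome. With the probe set numbered among its own chromosome, Cox7b had a mean of 10.75 in liver, 10.67 in kidney and 9.23 in lung. Cox7a2l, whose protein is known to join complexes III and IV into supercomplexes, differed by 0.67 and -0.32. Cox5a, a subunit with no paralogous form in this set, differed by 1.23 and -1.46. For Cox4i1, Cox6a1, Cox7a2, Cox7a2l and Cox8a, whose brain or liver level lay near the mean of the other tissues, the sign of the brain or liver difference turned with centring.

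The restricted forms departed from that order. Cox4i2, known as the lung form of subunit IV, was at 10.25, 11.19 and 11.68 in lung, at 7.10, 7.76 and 8.22 in kidney, at 6.69, 7.02 and 7.32 in brain and at 6.19, 6.92 and 7.98 in liver. No lung array overlapped another tissue, and the lung difference was 3.93 ± 0.022 (SE). Markers of smooth muscle and pericytes were also higher in lung, by at least 1 log2 for 7 of 9, and their mean ran from 9.68 to 10.42 in lung and from 8.62 to 9.22 in kidney, and up to 8.01 in brain and 8.15 in liver. Their part in the Cox4i2 difference was not tested.

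**Figure D2:**
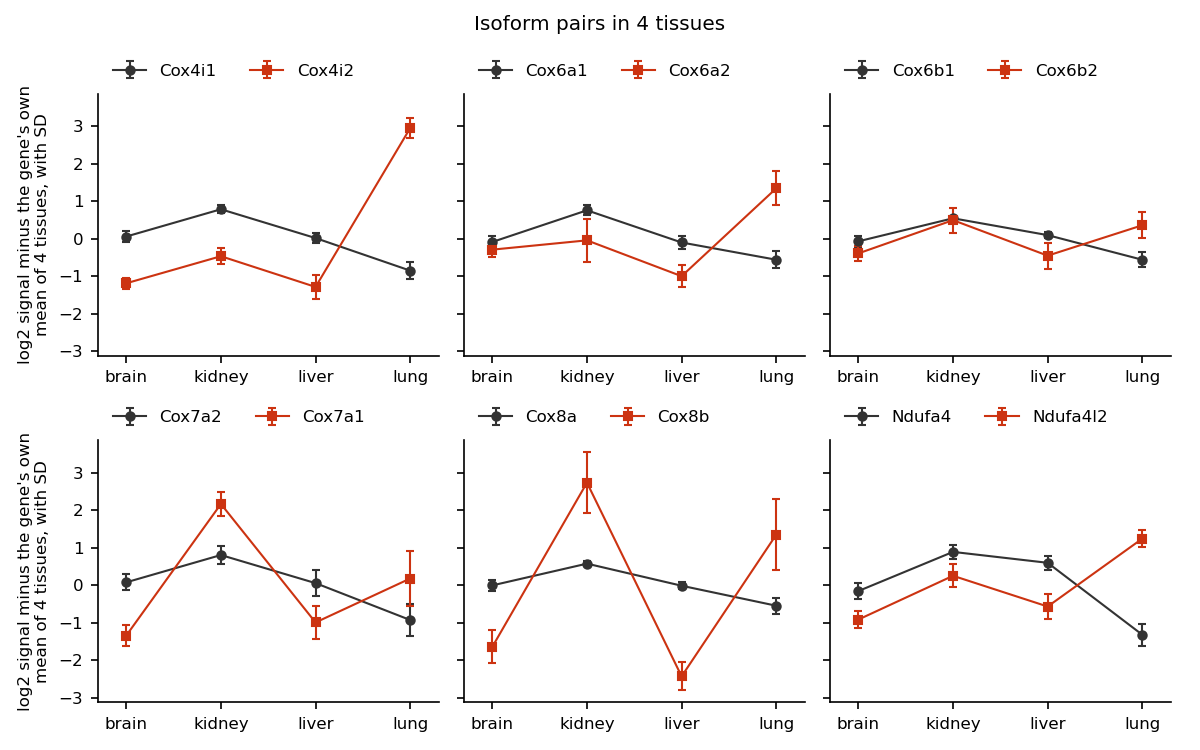
Log2 signal of paired forms of the complex IV and related subunits in the 4 tissues, drawn as the tissue mean minus the gene's own mean over tissues, with bars for the SD over arrays. Cox4i2 stands highest in lung and Cox7a1 and Cox8b in kidney, while Cox4i1, Cox7a2 and Cox8a stand highest in kidney and lowest in lung.

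Cox7a1 and Cox8b, the forms of subunits VIIa and VIII found in heart, skeletal muscle and brown fat, were high in kidney and variable in lung. Cox8b was at 7.30, 10.87 and 12.53 in kidney, at 6.74, 9.32 and 12.08 in lung, at 5.46, 6.44 and 7.53 in brain and at 4.82, 5.62 and 6.52 in liver, as lowest, median and highest. Kidney and lung spread widely and overlapped, and the kidney difference was 3.65 ± 0.068 (SE; limma, adjusted p = 1.3e-172). Cox7a1 was at 9.11, 10.42 and 11.13 in kidney and at 6.25, 8.38 and 10.45 in lung, and its kidney difference was 2.89 ± 0.049. Brain, from 6.02 to 7.47, and liver, from 6.30 to 8.42, lay below all kidney arrays. Cox6a2, the heart and skeletal muscle form of subunit VIa, was highest in lung, at 8.02, 9.11 and 10.49, and its lung difference was 1.79 ± 0.036. In kidney it ran from 6.72 to 8.86, and the kidney difference of -0.06 was not called (limma, adjusted p = 0.10).

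Markers of fat were mostly higher in kidney, and markers of heart muscle in lung. Between brain and lung the brown fat mean did not follow Cox7a1 and Cox8b, whose medians were higher in lung. Of 10 brown fat genes listed, 7 were measured outside the set, and their mean ran from 6.92 to 9.60 in kidney with a median of 8.55, from 5.65 to 8.38 in lung with a median of 6.29, from 6.92 to 7.36 in brain and from 6.06 to 6.99 in liver. In kidney 5 of the 7 were higher by at least 1 and the other 2 were lower. Ucp1, the uncoupling protein that defines brown fat, was at 7.32, 10.46 and 11.91 in kidney and at 4.28, 5.87 and 11.17 in lung, with a highest value of 4.92 in brain and 5.17 in liver. All 6 white fat genes were higher by at least 1 in kidney, with a mean from 6.72 to 9.81, against 5.59 to 8.92 in lung and highest values of 5.38 in brain and 6.34 in liver. In lung, 10 of 11 heart muscle genes were higher by at least 1, with a mean from 7.95 to 11.45 and a highest value of 6.57 in brain, 6.37 in kidney and 6.23 in liver. Actc1, the cardiac actin, was at 11.73, 12.89 and 13.31 in lung.

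Within tissues, these forms were set beside the marker means as deviations from the mean of each cross and sex, in 9 relations with 100000 permutations each. Over 102 kidney arrays, Cox8b and the brown fat mean gave Pearson r = 0.89 and Spearman rho = 0.88, and Cox7a1 gave 0.72 and 0.70. Over 98 lung arrays, Cox8b gave 0.85 and 0.86 with brown fat and 0.78 and 0.73 with heart muscle, and Cox7a1 gave 0.80 and 0.81 with brown fat and 0.84 and 0.78 with heart muscle. Cox6a2 gave 0.80 and 0.74 with heart muscle and 0.58 and 0.59 with brown fat in lung. Each of these 8 had p = 1e-05, the smallest that the permutations can give, and an adjusted p of 1.1e-05. Cox6a2 and brown fat in kidney gave r = 0.15 and rho = 0.17, with adjusted permutation p = 0.12 and 0.094. Without the 2 arrays farthest from the median, r ranged from 0.52 to 0.87 over the 8 and was 0.16 for the last. The part of other cell types in the tissue differences of Cox7a1, Cox8b and Cox6a2 was not tested.

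**Figure D3:**
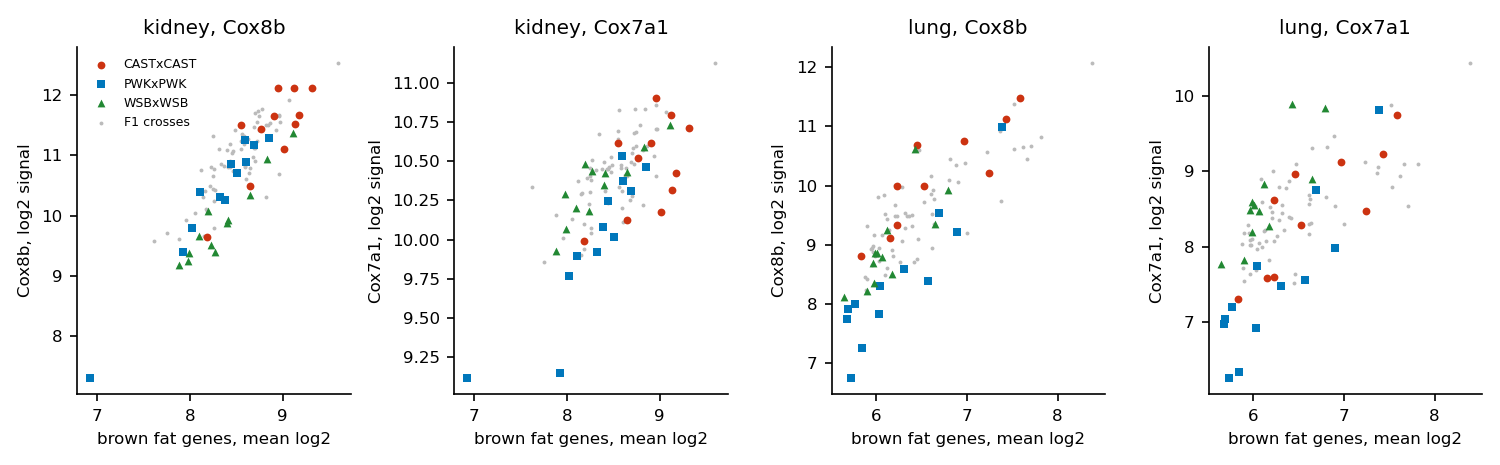
Cox8b and Cox7a1 log2 signal against the mean log2 signal of the 7 brown fat genes in kidney and lung, 1 point per array, with the inbred strains marked apart from the F1 crosses. Arrays with a high brown fat mean had high signal of both genes, and Cox8b in kidney reached from 7.30 to 12.53.

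The remaining forms were low or mixed. Cox6b2, known from testis, was 0.65 higher in kidney and 0.49 higher in lung than in the mean of the other tissues. Cox7b2 and Cox8c, also known from testis, were highest in liver, at 0.23 and 0.31 above the others, and neither passed the filter on low signal in any tissue. Their kidney differences of 0.02 and 0.015 were not called (limma, adjusted p = 0.322 and 0.535), and both turned negative with array medians centred.

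Other genes of the pathway were counted from lists chosen with earlier results of these data known. Of 43 assembly factors measured of 46 listed, 4 were at least 1 higher in kidney and 20 at least 1 lower in lung, with medians of 0.56 and -0.97, where 9.18% of all genes were that much higher in kidney and 11.9% that much lower in lung. The kidney count of assembly factors was thus near the share of all genes, and the same shares apply to the lists that follow. Ecsit, which takes part in complex I assembly, differed by 1.07 and -1.41, and Lrpprc, which stabilises mitochondrial mRNA, by -1.46 in lung. Of 15 citric acid cycle genes measured of 17, 7 were at least 1 higher in kidney, among them the succinyl-CoA ligase gene Suclg2 at 2.02 and the isocitrate dehydrogenase gene Idh2 at 1.73, and 6 were at least 1 lower in lung. Of 16 carriers and electron-transfer genes of 18, 7 were at least 1 higher in kidney and 5 at least 1 lower in lung. Etfdh, which feeds electrons from fatty acid oxidation to ubiquinone, was 1.24 higher in kidney and 1.87 higher in liver. Of 16 regulators of 19, 4 were at least 1 higher in kidney and 6 at least 1 lower in lung. The estrogen-related receptor genes Esrrb and Esrrg were 3.88 and 2.34 higher in kidney, and Esrrg and the coactivator gene Ppargc1a differed by -2.64 each in lung.

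The second comparison asks which subunit genes differ between the inbred strains within a tissue. A few genes of complexes I, III and IV differed strongly and in the same direction in all 4 tissues, while most differences were small. CAST mice had low Ndufs5 and Uqcr10 signal in every tissue, and WSB mice had high Cox5b and Cox7a2 signal. Comparisons between strains share the arrays of each inbred, so the values for pairs are given side by side. The filter on low signal, which was applied to each tissue's mean, passed 77 of the 81 genes in brain, 78 in liver and 79 each in kidney and lung. Whether probes overlie sequence variants of these strains was not analysed here, and a strain difference in signal can include a difference in hybridisation.

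In brain, 42 of 77 genes were called between CAST and PWK, 8 higher and 34 lower in CAST, where 40.9% of all 11292 tested genes were called. Between CAST and WSB 33 were called, 10 higher and 23 lower in CAST, against 52.4%, and between PWK and WSB 34, with 25 higher in PWK, against 40.4%. In kidney, 36 of 79 were called for CAST and PWK, against 60.1%, 35 for CAST and WSB, against 59.6%, and 33 for PWK and WSB, against 60.7%. In liver, 30 of 78 were called for CAST and PWK, against 50.1%, 37 for CAST and WSB, against 57.0%, and 25 for PWK and WSB, against 55.3%. In lung, 44 of 79 were called for CAST and PWK, against 62.7%, 28 for CAST and WSB, against 59.9%, and 30 for PWK and WSB, against 61.4%. The share of the subunit genes called lay above that of all genes in both brain comparisons with PWK and below it in the other 10.

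Most called differences were small, with median sizes from 0.21 to 0.39 log2 over the 12 comparisons. At least 1 log2 was reached by 0 to 4 genes in each. The balance of higher and lower depended on the scale in 4 comparisons. In kidney it was 20 to 16 for CAST over PWK and 24 to 10 with array medians centred, and 11 to 22 for PWK over WSB and 3 to 38 centred. In liver it was 12 to 13 for PWK over WSB and 9 to 15 centred, and in lung 18 to 10 for CAST over WSB and 14 to 16 centred.

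Ndufs5, an accessory subunit of complex I, had the largest negative CAST difference in all 8 comparisons with PWK or WSB. In brain its lowest, median and highest signals were 6.33, 6.95 and 7.59 in 8 CAST arrays, 7.67, 8.30 and 8.52 in 6 PWK arrays and 8.49, 8.95 and 9.19 in 11 WSB arrays. In lung they were 5.24, 5.80 and 6.42 in CAST, 6.26, 7.02 and 7.54 in PWK and 7.37, 7.81 and 8.26 in WSB. CAST lay below both other strains without overlap in brain, and below WSB without overlap in lung. The CAST difference from WSB was -2.0 ± 0.11 in brain (SE), and it was -1.68 for kidney, -1.62 for liver and -2.01 for lung (limma, adjusted p = 4.58e-27 in brain). From PWK it was -1.33, -1.10, -1.25 and -1.17, and PWK differed from WSB by -0.67, -0.59, -0.37 and -0.84.

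Uqcr10 was also low in CAST. In brain it was at 8.0, 8.41 and 8.64 in CAST, 9.23, 9.56 and 9.85 in PWK and 8.90, 9.67 and 10.12 in WSB. CAST lay below both other strains with no overlap, and PWK and WSB overlapped. The CAST differences were -1.14 ± 0.12 from PWK and -1.30 ± 0.10 from WSB (SE; limma, adjusted p = 1.72e-12 and 1.57e-18), and over the 4 tissues they averaged -0.93 and -1.16. Sdhc, a membrane anchor of complex II, was also lower in CAST in all 4 tissues, with average differences of -0.41 from PWK and -0.38 from WSB.

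Cox5b and Cox7a2 of complex IV set WSB apart. Cox5b, a zinc-binding subunit, was at 11.23, 11.38 and 11.70 in CAST brain, 11.44, 11.57 and 11.75 in PWK and 12.29, 12.40 and 12.62 in WSB. WSB lay above both with no overlap, and the PWK difference from WSB was -0.85 ± 0.046 (SE; limma, adjusted p = 9.93e-27). Over the 4 tissues Cox5b averaged -0.69 for CAST minus WSB and -0.66 for PWK minus WSB. Cox7a2 in liver was at 9.76, 10.08 and 10.31 in CAST, 9.55, 9.98 and 10.24 in PWK and 10.54, 10.83 and 10.99 in WSB. WSB again did not overlap the others, and the PWK difference from WSB was -0.84 in liver and -1.04 in lung.

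**Figure D4:**
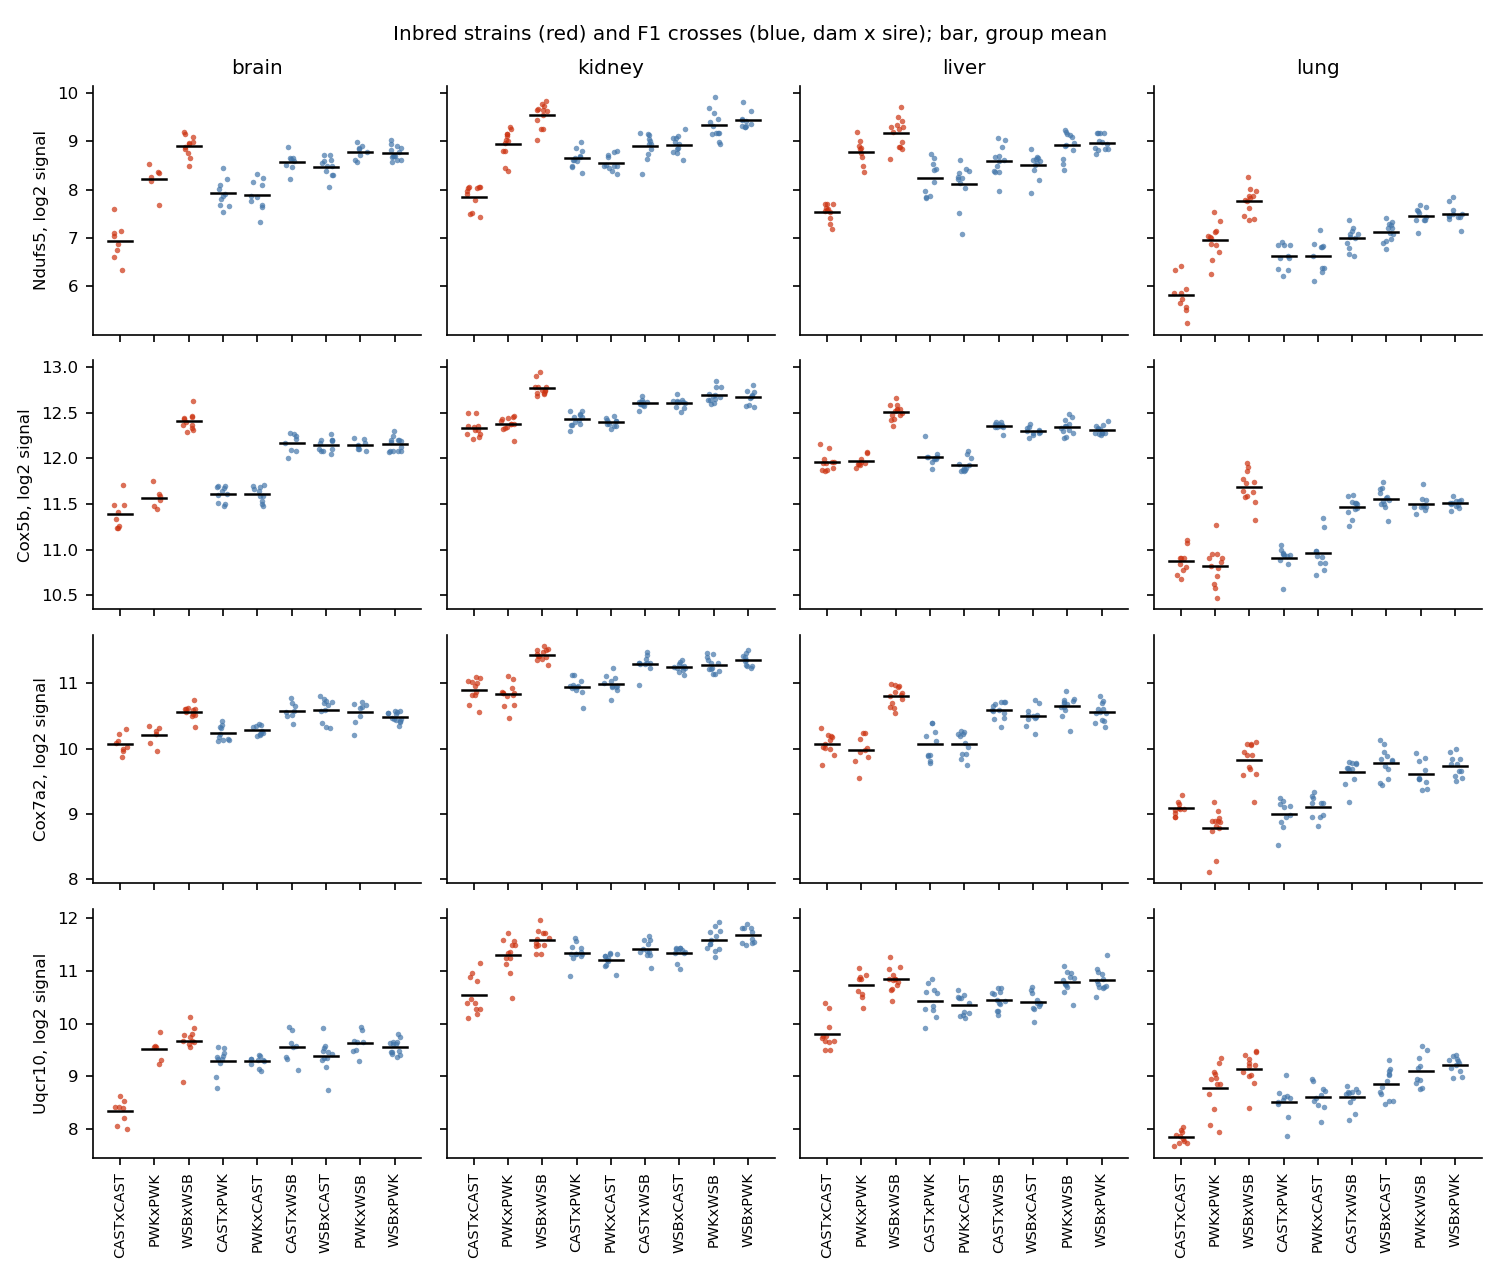
Log2 signal of Ndufs5, Uqcr10, Cox5b and Cox7a2 in the inbred strains and F1 crosses, 1 point per array with a bar at the group mean, by tissue. CAST points lie low for Ndufs5 and Uqcr10 and WSB points high for Cox5b and Cox7a2, with most F1 points between their parents.

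Called in the same direction in all 4 tissues were 15 genes for CAST with PWK, 14 for CAST with WSB and 10 for PWK with WSB, of the 76 tested in every tissue. Averages of at least 0.3 were reached by 11, 11 and 9 of these. Neither count was made over all genes, so they do not show whether the subunit genes differ from other genes in this. In complex I, the average CAST minus PWK difference was -0.37 for Ndufa1, -0.44 for Ndufa6, -0.40 for Ndufb11, -0.30 for Ndufc2 and -0.30 for Ndufv1, the flavin-binding core subunit, and 0.31 for Ndufs1, a core subunit with iron-sulfur clusters. CAST minus WSB was -0.43 for Ndufa6, -0.44 for Ndufb11, 0.31 for Ndufa4 and 0.43 for Ndufs4. In complex III, the core subunit gene Uqcrc1 was 0.47 above PWK in CAST mice, and Uqcr11 and Uqcrq, small subunits, were 0.36 and 0.40 above WSB. In complex V, Atp5h, subunit d of the stator, was lower in PWK, at 0.36 for CAST minus PWK and -0.36 for PWK minus WSB. PWK minus WSB was 0.42 for Ndufa1, 0.32 for Ndufc2 and 0.31 for Ndufb2, and -0.33 for Ndufa11, -0.36 for Uqcrc1, -0.62 for Ndufs5 and -0.71 for Cox7a2.

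The muscle and fat forms gave the largest positive CAST differences in kidney and lung. Cox8b in kidney was at 9.65, 11.51 and 12.12 in CAST, 7.30, 10.55 and 11.29 in PWK and 9.18, 9.77 and 11.37 in WSB. The groups overlapped, and CAST exceeded PWK by 1.07 ± 0.27 and WSB by 1.46 (SE; limma, adjusted p = 0.000369 and 1.93e-06). In lung, CAST exceeded PWK by 1.83 ± 0.32 and WSB by 1.23 in Cox8b. The brown fat mean was 8.89 in CAST, 8.28 in PWK and 8.34 in WSB kidneys and 6.66, 6.22 and 6.14 in lungs, over 7 genes, and the heart muscle mean in lung was 9.51, 8.86 and 9.95. For Cox7a1 in lung, PWK minus WSB was -1.14 ± 0.26. The part of these marker levels in the strain differences was not tested.

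Cox6a2 in kidney was at 8.11, 8.47 and 8.86 in CAST, 7.34, 7.83 and 8.15 in PWK and 6.72, 7.16 and 7.81 in WSB. CAST lay above WSB with no overlap, by 1.30 ± 0.097 (SE; limma, adjusted p = 1.05e-21), and PWK above WSB by 0.56. For Ndufa4l2 in kidney, PWK minus WSB was -0.75. Cox4i2 in liver was at 7.07, 7.54 and 7.98 in PWK and 6.22, 6.72 and 6.99 in WSB, with no overlap and a difference of 0.82. Ndufc1 in liver was 0.61 higher in CAST than in PWK. In brain, Ndufs4 was 0.60 higher in CAST than in WSB, Ndufa1 0.74 higher in PWK than in WSB, and Atp5h 0.29 higher in CAST than in PWK, the highest called value of that comparison. In lung, Ndufb2 was 0.48 higher in PWK than in WSB, and in liver Ndufs4 was 0.45 higher in CAST than in WSB.

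Whether a strain difference itself differed between tissues was tested as an interaction for the 76 genes. It was called for 48 genes, or 63.2%, between CAST and PWK, where 66.6% of all 9152 tested genes were called, for 33, or 43.4%, between CAST and WSB, against 71.7%, and for 40, or 52.6%, between PWK and WSB, against 66.5%. Atp5j2, subunit f of the ATP synthase, had the highest F for CAST and PWK, with a lung difference of 0.73 against -0.18 in brain and 0.17 each in kidney and liver (limma, adjusted p = 4.37e-15). Cox5b had the highest F for both comparisons with WSB, its CAST difference from WSB ranging from -0.43 to -0.98 and its PWK difference from -0.40 to -0.88 over the 4 tissues (limma, adjusted p = 1.6e-18 and 1.47e-17).

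The F1 crosses were placed between their parents for the genes with strong strain differences. A called strain difference of at least 0.5 was found in 81 comparisons of a gene, tissue and strain pair, over 29 genes. In 71 of the 81, the means of both reciprocal F1 crosses lay between the parental means. The F1 mean stood a median 0.695 of the way from the lower to the higher parent on the log2 scale, from -0.197 to 1.14, where 0 is the lower and 1 the higher parent. By tissue, the median was 0.781 for brain, 0.724 for lung, 0.691 for kidney and 0.601 for liver. The mean of both parents on the linear scale itself lies nearer the higher parent on the log2 scale. These counts and medians were not made over all genes, so they do not show a trait particular to this set. For Ndufs5 in brain, CASTxWSB arrays were at 8.22, 8.61 and 8.89 and WSBxCAST arrays at 8.06, 8.49 and 8.72, above all CAST arrays and nearer to WSB.

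The third comparison asks whether the F1 level differs from the mid-parent, the mean of both inbreds' log2 levels, taking both F1 directions together. Subunit genes of all 5 complexes were called above the mid-parent in brain for the crosses with CAST, in kidney, and in lung for PWK and WSB. In these the share of the set called higher exceeded that of all genes. In lung, the share called higher for the crosses with CAST was 12.7% each, near or below the 10.1% and 14.9% of all genes. Liver showed few or lower values. The differences were small, with medians from -0.05 to 0.14. The 3 pairs within a tissue share inbred arrays and are not independent.

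In brain, 46 of 77 genes were called higher in the CAST and WSB F1 and 0 lower, where 23.0% of all genes were called higher and 14% lower. By unadjusted p under 0.05 in limma 55 were higher and none of those lower, and 5300 of all 11292 genes passed in either direction. In the CAST and PWK F1, 24 were higher and 0 lower, against 11.2% and 7.7%. In the PWK and WSB F1, 2 were higher and 3 lower, against 5.97% and 4.04%. With arrays centred on their medians the CAST and PWK counts were 15 and 2, and the CAST and WSB counts 22 and 1. The CAST and PWK count changed with single arrays: it was 14 without CASTxCAST replicate 1, 14 without CASTxPWK replicate 10, 13 without PWKxCAST replicate 1, 8 without PWKxPWK replicate 3 and 12 without PWKxPWK replicate 4. The count for PWK and WSB was 3 in place of 5 without PWKxPWK replicate 1.

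In kidney, 31 of 79 genes were called higher and 2 lower in the CAST and PWK F1, against 17.1% and 16.6% of all genes. In the CAST and WSB F1, 25 were higher and 4 lower, against 22.6% and 20%, or 9 and 4 with arrays centred. In the PWK and WSB F1, 47 were higher and 1 lower, against 18.6% and 18.8%. In lung, 10 of 79 were higher and 0 lower for CAST and PWK, against 10.1% and 9.43%, 10 and 0 for CAST and WSB, against 14.9% and 15.6%, and 30 and 0 for PWK and WSB, against 22.7% and 14.5%. By unadjusted p under 0.05 in limma, 26, 24 and 49 of the lung genes were higher. Of all 11292 genes, 3582, 4591 and 5269 passed in either direction. With arrays centred on their medians the lung counts were 20, 27 and 22 higher and 0 lower in each. The counts of the crosses with CAST changed with single arrays. For CAST and PWK the count was 6 without CASTxCAST replicate 1, 17 without CASTxCAST replicate 5, 6 without CASTxPWK replicate 2, 23 without CASTxPWK replicate 4 and 5 without PWKxCAST replicate 3. For CAST and WSB it was 19 without CASTxWSB replicate 7 and 21 without WSBxCAST replicate 2.

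In liver, 0 of 78 genes were higher and 8 lower in the CAST and PWK F1, against 7.34% and 11.3% of all genes, and with centring none was called. In the CAST and WSB F1, 1 was higher and 15 lower, against 13.8% and 11.5%, or 2 and 5 centred. In the PWK and WSB F1, 2 were higher and 0 lower, against 8.73% and 8.31%. The first of these counts was 5 without CASTxCAST replicate 4, without CASTxPWK replicate 7 or without PWKxPWK replicate 2. The last was 5 without PWKxWSB replicate 4 and 4 without PWKxWSB replicate 9 or WSBxWSB replicate 11. At unadjusted p under 0.05 in limma, 14, 35 and 8 liver genes passed in the 3 comparisons, as did 3538, 4030 and 3275 of all 11292 genes.

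With runs of neighbouring animal numbers within a cross taken as a random block, since litters are not labelled, fewer genes were called above or below the mid-parent. In brain, 10 were called for CAST with PWK, 42 for CAST with WSB and 3 for PWK with WSB, the order kept in what follows. In kidney the counts were 12, 5 and 10, in liver 2, 1 and 0, and in lung 2, 4 and 3. The share of all genes called in this fit is not given here. The number of genes above 0, called or not, was 71, 72 and 31 of 77 in brain, 64, 55 and 76 of 79 in kidney, 34, 11 and 31 of 78 in liver and 73, 60 and 74 of 79 in lung. With the mid-parent taken on the linear scale, a setting chosen after seeing the data, these numbers were 69, 72 and 29, then 64, 53 and 76, then 31, 9 and 31, and 71, 56 and 73. The number above 0 was not counted over all genes, whose median differences in the main fit lay between -0.011 and 0.028.

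**Figure D5:**
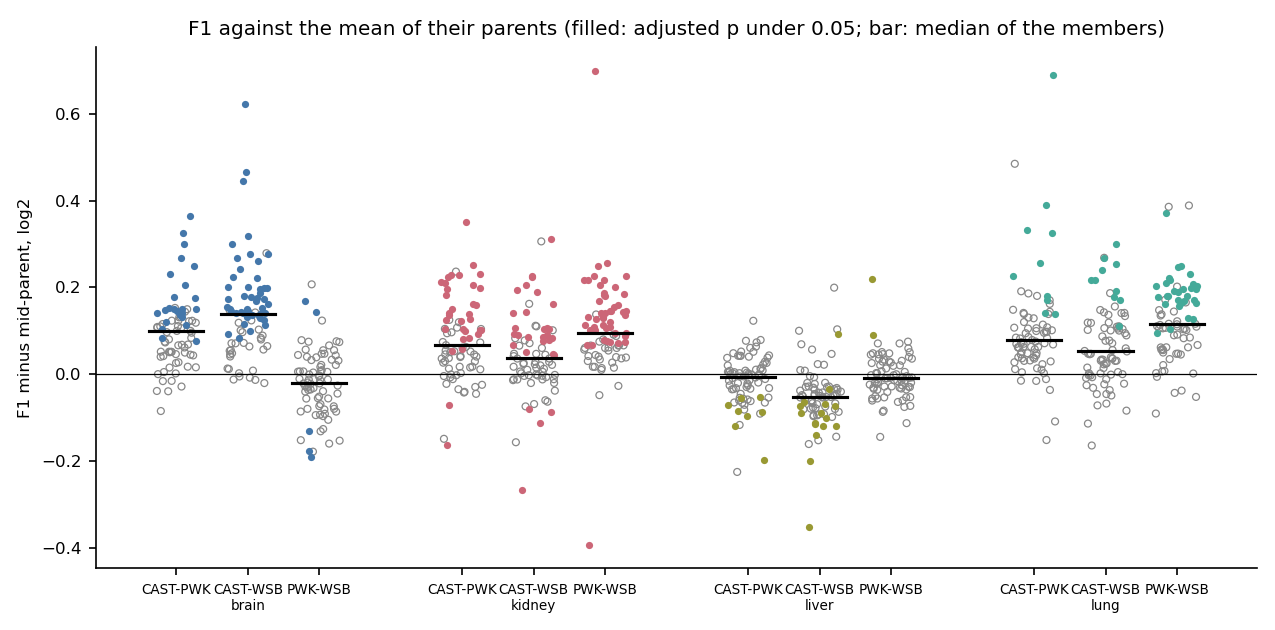
F1 minus mid-parent on the log2 scale for the subunit genes, by tissue and strain pair, 1 point per gene, filled where called, with a bar at the median. Most points lie above 0 in brain for pairs with CAST and in kidney and lung, and near or below 0 in liver.

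By complex, the brain CAST and WSB F1 had 20 of 35 complex I genes called higher, 2 of 4 of complex II, 5 of 7 of complex III, 10 of 14 of complex IV and 9 of 17 of complex V. In the kidney PWK and WSB F1 the counts were 20 of 36, 2 of 4, 6 of 7, 9 of 15 and 10 of 17. The largest brain difference was that of Ndufs5, whose F1 lay 0.62 ± 0.077 above the mid-parent of CAST and WSB (SE; limma, adjusted p = 2.38e-09), and 0.30 above it on the linear scale. Uqcr10 led the CAST and PWK F1 in brain, at 0.36 ± 0.078 (SE; limma, adjusted p = 0.000896), where CASTxPWK arrays were at 8.78, 9.35 and 9.55 and PWKxCAST arrays at 9.10, 9.31 and 9.40, all above the CAST arrays. It also led the kidney F1 of CAST and PWK, at 0.35, and of CAST and WSB, at 0.31. The smallest called brain differences in these crosses were 0.08 for Atp5d and 0.08 for Ndufc2. In the PWK and WSB F1 of brain, Cox5b was 0.17 above and Ndufb7, an accessory subunit of complex I, at -0.19.

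Among the lower values, Ndufa5, an accessory subunit of complex I, was at -0.16 and -0.27 in the kidney F1 crosses of CAST with PWK and with WSB. Cox6a2 was at -0.39 ± 0.069 and Cox8b at 0.70 ± 0.19 in the kidney F1 of PWK and WSB (SE; limma, adjusted p = 4.05e-06 and 0.00241). One PWKxWSB kidney array, replicate 9, had the highest Cox6a2 of its cross, 8.61, and a skeletal muscle marker mean of 9.97 over 10 genes, where the next kidney array was at 7.91. In lung, Cox8b was 0.69 above for CAST and PWK, Cox4i2 0.30 above for CAST and WSB and Cox7a2 0.37 above for PWK and WSB. The smallest called lung values were 0.14 and 0.11 for Sdhc and 0.09 for Sdha. In liver, Cox7a2 was 0.22 above for PWK and WSB and Cox5b 0.09 above for both crosses with WSB. Cox7a1 was at -0.35 for CAST and WSB, Cox4i2 at -0.20 for CAST and PWK, and Ndufs7, a core complex I subunit, at -0.05.

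The other pathway lists gave counts in the same comparisons. In the brain CAST and WSB F1, 25 of 42 assembly factors were higher and 0 lower, where 23.0% of all genes were higher and 14% lower, among them Cox14, needed for complex IV assembly, at 0.29, and 10 of 14 carriers were higher and 0 lower, among them the ubiquinone synthesis gene Coq9 at 0.25. Of 15 regulators, 3 were higher and 3 lower, with Hcfc1, a host cell factor that works with transcription factors, at -0.24, and of 15 citric acid cycle genes 6 were higher and 1 lower. In the kidney CAST and WSB F1, 12 of 42 assembly factors were higher and 3 lower, and 7 of 15 citric acid cycle genes were lower and 0 higher, where 22.6% of all genes were higher and 20% lower. The counts of assembly factors higher in kidney and of regulators in brain were near these shares. In liver, 5 and 6 of 15 citric acid cycle genes were lower in the F1 of CAST with PWK and with WSB, and 0 were higher, where 11.3% and 11.5% of all genes were lower.

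The fourth comparison sets the reciprocal F1 crosses against each other, which asks whether the direction of the cross, that is which strain was the dam, changes the level. Males carry the dam's X chromosome, and 3 genes of the set are X-linked: Ndufb11 and Ndufa1 of complex I and Cox7b of complex IV. Ndufb11, an accessory subunit whose CAST level was low, was lower with a CAST dam. Outside lung and liver, few or no other genes were called, and the lung share for CAST and WSB was near that of all genes.

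In brain, 1 of 77 genes was called for each pair, where of all genes 0.151% were called for CAST with PWK, 0.779% for CAST with WSB and 0.248% for PWK with WSB. In kidney, 1, 1 and 0 of 79 were called, against 3.03%, 2.44% and 1.0%. For the last pair 6 genes had an unadjusted p under 0.05 in limma, as had 1474 of all 11292 genes. In liver, 5, 10 and 0 of 78 were called, against 9.32%, 5.62% and 1.22%. For the last pair 2 were at an unadjusted p under 0.05 in limma, as were 1263 of all genes. In lung, 1, 29 and 1 of 79 were called, against 0.611%, 38.8% and 8.4%. The 29 lung genes were 36.7% of those tested, near the share of all genes, of which 24.3% were called lower and 14.5% higher. All 29 lung genes were lower in CASTxWSB than in WSBxCAST, led by Ndufb11 at -0.47 and Ndufb8 at -0.31, and the smallest of them was Atp5mpl at -0.20. Summed over the 3 pairs, the lung count of 31 was 17 without CASTxWSB replicate 7, and the liver count of 15 was 24 without PWKxCAST replicate 11. With animal runs as a random block the summed counts were 1 each in brain and lung and 0 each in kidney and liver, and at an unadjusted p under 0.05 in limma 1, 1 and 0 kidney genes and 5, 9 and 1 liver genes passed in that fit for the 3 pairs.

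Ndufb11 was the called gene in both pairs with CAST in brain, at -0.27 and -0.42, and in kidney, at -0.16 and -0.20, and in lung it was at -0.39 and -0.47, as CAST dam minus CAST sire with PWK and with WSB (limma, adjusted p = 2.77e-05 in brain and 6.96e-06 in lung for the WSB pair). In male lungs it was at 10.85, 11.46 and 11.55 in CASTxWSB and at 11.74, 12.18 and 12.35 in WSBxCAST, given as lowest, median and highest. The male groups did not overlap. In female lungs the values were 11.50, 11.63 and 11.67 against 11.53, 11.76 and 11.88, which overlapped. Within males the difference for the WSB pair was -0.81 in lung and -0.62 in brain, with -0.31 for kidney and -0.29 for liver (limma, adjusted p = 9.66e-08, 3.5e-05, 0.00148 and 0.0103). For the PWK pair it was -0.63, -0.44, -0.28 and -0.15, the last not called (limma, adjusted p = 0.31). Within females the differences with CAST ranged from -0.23 to 0.04 and none was called. The difference between the sexes was not tested.

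The probe set used for Ndufb11 has a number among those of another chromosome, as have those of 10 other genes of the set. With the probe set numbered among its own chromosome, chosen after seeing the data, Ndufb11 was called with both sexes together only in lung for CAST and WSB, at -0.47, and within males at -0.54 in brain, -0.27 in liver and -0.81 in lung for that pair and at -0.55 in lung for CAST and PWK. Over the 11 genes and all reciprocal comparisons, 15 were called with the probe sets used, 7 with the others and 7 with both. Over their 132 strain comparisons, 45 and 52 were called, 35 by both, and 2 of these in opposite directions, both of Cox7a2l for CAST and WSB: 0.30 and -0.42 in kidney and 0.35 and -0.34 in liver.

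Ndufa1 was called for PWK and WSB in brain, 0.51 higher with a PWK dam, and for CAST and PWK in liver, at -0.35. Within males it was called in kidney at -0.49 and in liver at -0.54 for CAST and PWK, in liver at 0.53 for PWK and WSB, and in lung at -0.38 for CAST and WSB. Cox7b was not called in any tissue or pair with the probe set used, which is numbered among those of another chromosome. With its X-numbered probe set it was called within males in lung for CAST and WSB, at -0.34 (limma, adjusted p = 0.0311). In liver, Cox7a1 was higher with a CAST dam, by 0.75 against PWKxCAST and by 0.57 against WSBxCAST (limma, adjusted p = 0.000466 and 0.00509), and the smallest called liver value for CAST and WSB was 0.07 for Atp5b. The liver arrays were at 6.87, 7.55 and 8.42 in CASTxPWK and 6.30, 6.87 and 7.20 in PWKxCAST, which overlapped in part. The brown fat mean in these livers was 6.53 and 6.58, over 7 genes. In lung, Atp5pb, subunit b of the ATP synthase stator, was at -0.24 for PWK and WSB. Its probe set is also numbered among those of another chromosome. With the own-chromosome probe set the difference was -0.16 and not called (limma, adjusted p = 0.138).

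Few of these genes were called between females and males. In brain 0 of 77 genes were called by limma, where 0.0708% of all genes were called. An unadjusted p under 0.05 was found for 2 of them, and for 903 of all 11292 genes. In kidney the called gene was Ndufb3, a complex I accessory subunit, at -0.11 for females minus males, against 10.9% of all genes. In liver Cox7a1 was at 0.22 and Cox4i2 at -0.13, against 13.8%. In lung 0 of 79 were called by limma, against 3.52%, with 33 at an unadjusted p under 0.05, as were 2535 of all 11292 genes. The median lung difference was 0.07 over these genes and 0.01 over all genes, all 79 were above 0, and with arrays centred on their medians 72 were above 0 and 12 had an unadjusted p under 0.05. On 2 arrays the sex genes did not match the label: PWKxWSB liver replicate 8, labelled male, had the female pattern, and PWKxCAST brain replicate 9, labelled female, had low Xist and a low Y-linked gene, the pattern of neither sex. Without both, the reciprocal count in brain was 2 in place of 3 and in liver 16 in place of 15, the mid-parent count of CAST and PWK in brain was 21 in place of 24, and the other counts of called genes by tissue did not move.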

How the data were processed

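RNA levels were measured on Affymetrix Mouse Gene 1.1 ST arrays. The deposited values are log2 signals that the authors made with RMA in Affymetrix Expression Console, per the submitters' processing notes. Versions, and whether the tissues were normalized together, are not given in the sources used here. Probe sets were named through the platform annotation. Whether probes overlie variants of these strains was not analysed here.

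Samples were grouped by cross and tissue from the labels, and each array is a separate mouse within a tissue. Tissues were compared over all 18820 genes. Within a tissue, strain, reciprocal, mid-parent and sex contrasts came from 1 limma fit of the cross-by-sex means, with a mean-variance trend, over the 11292 genes above the 40th percentile of mean signal, and the interaction over 9152 genes. Since several tissues came from the same animals, the animal entered the tissue and interaction fits as an alternative replicate block. The correlation within animals was 0.031 in the tissue fit and 0.034 in the interaction fit. For the fits within a tissue, the alternative block was the run of neighbouring animal numbers. The correlation within these runs was larger: kidney arrays had 0.258, liver arrays 0.212, lung arrays 0.211 and brain arrays 0.085. The fits used limma 3.58.1 in R 4.3.3, with Benjamini-Hochberg adjustment and a threshold of 0.05, and were checked on simulated data. The simulated arrays were independent of each other, and contrasts within a tissue were simulated for brain only. That check thus does not cover correlation between arrays of related animals. Tables, permutations and plots used Python 3.11.15, pandas 2.3.3, NumPy 2.4.6, SciPy 1.17.1 and Matplotlib 3.10.9. The number of arrays limits the precision.

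Genes were named by rule: per complex the 2 members with the widest range between tissues, and the tissue isoforms; the highest and lowest called member of each tissue and pair; members called in the same direction in all 4 tissues with a mean difference of at least 0.3; all X-linked members; and up to 2 called genes of each other pathway list. Other genes named, such as those of narrow range, were chosen after their values were seen. The members and lists were chosen with earlier results of these data known.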

Additional observations from a re-analysis of the deposited data

Results flagged for a closer look

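The strain difference itself differed between the 4 tissues, by an interaction test, for 48 subunit genes in CAST minus PWK, 33 in CAST minus WSB and 40 in PWK minus WSB. These are 63.2%, 43.4% and 52.6% of the subunit genes, where 66.6%, 71.7% and 66.5% of all genes were called, so the set is not above the share of all genes. The highest F was 28.2 for Atp5j2 in CAST minus PWK, and Cox5b led both others, with 35.3 against CAST and 33.2 against PWK.

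Among the named genes, 26 of 390 groups of 6 to 10 arrays, or 6.67%, had 1 array far from the others by Dixon's criterion, over 19 genes. Groups of over 10 arrays, which are most of those in kidney, liver and lung, were not examined. Chance gives about 1 group in 20. Of the 26, 11 were CASTxPWK lung replicate 4. Cox7a1 in PWKxPWK brain replicate 4 was at 6.57, where the other arrays of that group lay between 7.04 and 7.12.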

How the results depend on the processing

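Strain counts summed over pairs, 109 for brain, 104 for kidney, 92 for liver and 102 for lung, stayed within 1.5 times under each setting tried, and no strain difference named by the rule changed sign. The Cox7a2l differences of CAST and WSB in kidney and liver reversed with own-chromosome probe sets, to -0.42 and -0.34. With animal runs as a random block, the reciprocal counts were 1 each in brain and lung and 0 each in kidney and liver, and the mid-parent counts were 10 for brain CAST and PWK, 3 for brain PWK and WSB, 12, 5 and 10 for kidney, 2, 1 and 0 for liver, and 2, 4 and 3 for lung, in the order of pairs used above, and the sex count was 1. With array weights, the reciprocal counts were 11 in brain, 33 in liver and 66 in lung, the mid-parent counts 8 for brain PWK and WSB, 34 for liver CAST and WSB, 5 for liver PWK and WSB and 18, 31 and 17 in lung, and the sex count 15. With centring on array medians, the reciprocal counts were 1 in kidney, 9 in liver and 16 in lung, the mid-parent counts 23 for brain CAST and WSB, 8 for brain PWK and WSB, 13 for kidney CAST and WSB, 0 and 7 for the liver crosses with CAST and 20 and 27 for the lung crosses with CAST. The tissue counts were then 19 in kidney and 21 in liver. The shares of all genes called under the settings of this section are not given here. The counts thus do not show whether the set differs from other genes under them. With the mean of a gene's probe sets the kidney reciprocal count was 1, with own-chromosome probe sets, chosen after seeing the data, the brain count was 1 and the kidney count 0, without the filter the liver count of CAST and PWK against mid-parent was 5, and with a 60th percentile filter the sex count was 1.

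Leaving out 1 array at a time gave reciprocal counts of 11 to 24 in liver and 17 to 43 in lung. Mid-parent counts ran from 8 to 29 for brain CAST and PWK, 3 to 7 for brain PWK and WSB, 5 to 9 for liver CAST and PWK, 2 to 5 for liver PWK and WSB, 5 to 23 for lung CAST and PWK and 9 to 21 for lung CAST and WSB. Tissue differences that changed sign with centring were Cox4i1 in brain, at -0.10, Cox6a1 in liver, at 0.31, Cox7a2 in brain, at -0.0815, Cox7a2l in liver, at 0.33, Cox7b2 in brain, at -0.0879, and kidney, at -0.0897, Cox8a in liver, at 0.43, and Cox8c in kidney, at -0.10. Cox6a1 in liver was at 0.0163 with the mean of its probe sets. The causes were not tested.

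With the animal as a random replicate block, the tissue counts were 5 for brain, 32 for kidney, 3 for liver and 42 for lung, and the interaction was called for 49, 34 and 41 genes in place of 48, 33 and 40. With the animal as a fixed block the tissue counts were 5, 30, 3 and 39. This pairing by animal moved none of these counts by over 1.5 times.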

Other observations

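Genes of the ribosomes, sets chosen after seeing the data, were counted in the same mid-parent comparisons, with pairs in the order CAST with PWK, CAST with WSB and PWK with WSB. Of 70 cytosolic ribosomal protein genes in brain, 7, 34 and 4 were called higher and 1, 1 and 5 lower, where 11.2%, 23.0% and 5.97% of all genes were higher and 7.7%, 14% and 4.04% lower. In kidney 33, 24 and 32 were higher and 0, 2 and 0 lower, against 17.1%, 22.6% and 18.6% of all genes higher and 16.6%, 20% and 18.8% lower. In lung 12, 18 and 22 were higher, against 10.1%, 14.9% and 22.7%, and in liver 7, 18 and 22, against 7.34%, 13.8% and 8.73%, with 0 lower in both tissues.

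Of the mitochondrial ribosomal protein genes, 20, 49 and 2 of 73 were higher and 0, 1 and 1 lower in brain, and 35, 29 and 31 of 74 higher and 0, 1 and 1 lower in kidney. In lung 10, 7 and 26 of 72 were higher and 0, 4 and 1 lower, and in liver 3, 8 and 3 of 74 were higher and 2, 0 and 0 lower, with the same shares of all genes.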
